A study of Mus musculus with 15 samples.

Results

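The Ptgs2 locus was followed by DNase-seq in bone marrow derived macrophages as all hotspots that overlap the 110 kb window chr1:151880000-151990000 of the mouse build mm9. The gene lies on the plus strand at about 151.947 to 151.956 Mb in that window. Over 15 libraries, 56 of 1124658 deposited hotspots met this rule, and merging hotspots that share at least 1 bp gave 11 elements. A hotspot is a stretch of the genome in which DNase I cuts more often than in its surroundings, as called by the authors in each library. Members were chosen by position alone. No annotation of mm9 was used here, so the place of the gene is the rounded one given above and distances are counted from 151.947 Mb.

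The macrophages came from C57BL/6J mice and received 10 ng/ml lipopolysaccharide (LPS), a cell wall component of Gram-negative bacteria, for 0, 3 or 8 h. At each of these times there were 5 libraries: 2 of wild type (WT), 1 labelled littermate control and 2 labelled Ikzf KO, called KO below. Ikaros, a DNA-binding zinc finger protein of blood cells, is the factor named in the title of the study (the sources used here name neither the KO allele nor the age of the mice). WT replicate 1 and all littermate and KO libraries have 80 U DNase in their titles and WT replicate 2 has 100 U, so DNase amount and replicate number coincide in WT. WT and littermate libraries are together called controls, and the libraries of 1 genotype with the same replicate number are called a series. Since the labels do not say whether replicates are separate mice or cultures, the spread behind each p-value may be technical. The macrophage identity named in the labels was not checked against marker genes, because no gene could be placed on mm9 except the one the window is built on.

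Ptgs2 encodes the inducible cyclooxygenase COX-2, which turns arachidonic acid into prostaglandin H2, the precursor of the prostaglandins of fever, pain and inflammation. Resting macrophages make little of it. After a signal through Toll-like receptor 4, NF-kB, C/EBP and CREB family factors act at its promoter and transcription rises within hours. In the RefSeq annotation, the gene before it on the chromosome is the long noncoding RNA Ptgs2os, transcribed away from Ptgs2 from nearly the same place, and the next protein-coding gene on that side is Pla2g4a, the phospholipase that frees arachidonic acid. After Ptgs2 and a pseudogene comes Ptgs2os2, also known as lincRNA-Cox2. Whether Ptgs2os starts within the start element described below was not tested, since its start was not placed on mm9. Hotspots carry no strand, so they cannot be assigned to Ptgs2 or Ptgs2os by it.

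The sequence around the Ptgs2 start is shown because the hotspot of highest Z-score in the window lies at or near it in every library. In WT replicate 1 at 0 h that hotspot lies 0.15 to 0.4 kb after the start as placed above, and in the other libraries it overlaps the start. The sequence was taken by gene symbol from RefSeq's promoter table, which is on GRCm38.p6 and not on the build of the hotspots. Its place under the hotspots was not checked. The first line is chr1:150099781-150100030 on the plus strand, the 250 bases before the RefSeq start, and the second is chr1:150100039-150100056, just after it. Capitals mark motif matches.
Ptgs2 upstream: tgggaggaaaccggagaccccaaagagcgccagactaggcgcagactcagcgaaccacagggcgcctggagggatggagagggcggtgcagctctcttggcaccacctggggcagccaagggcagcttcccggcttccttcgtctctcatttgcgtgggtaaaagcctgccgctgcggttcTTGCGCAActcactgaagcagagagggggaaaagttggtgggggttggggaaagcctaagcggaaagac
Ptgs2 after the start: cactACGTCACGTGgagt
Of 7 motifs searched on both strands, 3 had a match in the 300 bases of the table's entry. The C/EBP site TTGCGCAA lies 69 to 62 bases before the start and is found in 0.183% of the 32851 promoter entries of this length. The cAMP response element core ACGTCA, in 7.51% of entries, and the E-box CACGTG, in 7.15%, share 2 letters. In this entry they lie just after the RefSeq start, at bases 13 to 18 and 17 to 22 with that start as base 1. Motif positions are counted from the RefSeq start alone, and other starts of the gene were not examined. Letters searched for and not in this window were the kB site, which starts with GGGA and ends with CC after any 4 bases (in 20.7% of entries), and the AP-1 site TGANTCA (7.81%). For Ikaros family proteins only the form TGGGAA was searched (25.6% of entries), and it was not there either. Nor was the TATA box in the strict form TATAAA (13.6%). The shorter run GGGAA, contained in TGGGAA, does occur in the upstream line above, and its share of entries was not computed. The entry of Ptgs2os, on the minus strand, covers 256 of the same 300 bases. A match is a run of letters and no evidence of binding, and the absence of a match concerns only these letters and this window.

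Libraries differed in strength in ways that touch the locus. Lists held 15659 to 132279 hotspots, and WT lists stopped at higher Z-scores (the authors' score of a hotspot against its background; lowest 7.98 to 10.6) than littermate and KO lists (3.40 to 4.54). A hotspot of low Z-score missing from a WT list may therefore be present below its threshold. The highest tag density of a hotspot, MaxD, is in units whose scaling is not stated. Over the 7143 regions present in all 15 lists after each was shortened to its 15659 highest Z-scores (core regions), the median MaxD was 10.9 to 15.5 in control libraries at 0 and 3 h and 34.2 to 46.2 in the other 9 libraries. MaxD is for this reason given also as a multiple of the library's own core median. Depth is unknown. If 1 step of the density scale is 1 tag and libraries were scaled to 1 total, which the sources do not state, relative depth ranged from 0.525 to 1. In material from many cells, more cells with an open site and a more open site in each cell cannot be told apart.

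The start element, which overlaps the Ptgs2 start as placed above, was the only element present in all 15 deposited lists. Before LPS it was lower than with LPS in every series. MaxD at 0 h was 3.58 and 6.26 in the WT libraries, 3.77 in the littermate library and 7.96 and 9.60 in the KO libraries. The hotspot spanned 251 and 337 bp in WT, 709 bp in the littermate and 1086 and 1250 bp in KO. Its Z-score was 8.74 and 9.36 in WT, 7.66 in the littermate and 19.7 and 28.4 in KO. These lie above the lowest of each list by 0.45 and 0.07 in WT, 3.28 in the littermate and 16.09 and 24.7 in KO. The WT hotspots were thus barely listed, and the value of KO replicate 2 exceeded that of the littermate at 3 h (20.2). As a multiple of the core median, the 0 h density was 0.281 and 0.459 in WT, 0.345 in the littermate and 0.227 and 0.270 in KO. KO libraries were thus the highest in MaxD as deposited and the lowest once each library was scaled by its core regions. Of 13733 regions in all 5 deposited 0 h lists, 31.2% also had lower core-scaled density in both KO libraries than in all 3 controls, so the locus is 1 of many with that order.

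After 3 h of LPS the start element had risen in every series. MaxD was 14.0 and 16.3 in WT, 10.4 in the littermate and 43.7 and 48.0 in KO. It was 3.92 and 2.60 times the 0 h value in the WT series, 2.76 times in the littermate series and 5.49 and 4.99 times in the KO series. All 5 series rose, and no library at 3 h was as low as the 0 h library of its series. Scaled by core regions, the density was 1.08 and 1.05 in WT, 0.885 in the littermate and 1.27 and 1.40 in KO, so the scaled rises were 2.29 to 3.84 times in controls and 5.59 and 5.19 times in KO. Over the 5 series, log2 MaxD rose by 1.92 (3.78 times; two-sided exact permutation over hours within each genotype, p = 0.0278) and the core-scaled value by 1.87 (exact permutation p = 0.0278). This is the smallest p that the 72 arrangements allow. Z-scores at 3 h were 35.2 and 29.6 in WT, 20.2 in the littermate and 69.3 and 77.9 in KO. The scored hotspot was 11487 and 10992 bp long in KO and 870 to 942 bp in controls. Z-scores, and the ranks by Z-score below, thus compare hotspots of unlike length.

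**Figure D1:**
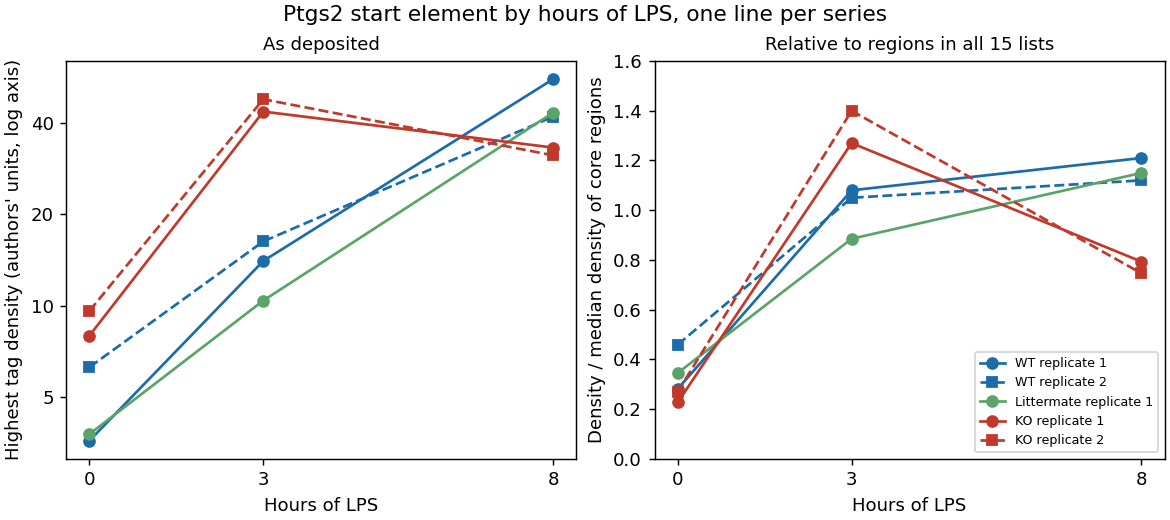
Highest tag density (MaxD) of the Ptgs2 start element against hours of LPS, as deposited on a log axis (left) and divided by the median of the library's 7143 core regions (right), with 1 point per library and 1 line per series. From 3 to 8 h the 3 control lines go up and both KO lines go down in either panel, and the right panel puts KO at 0.746 to 0.793 and controls at 1.12 to 1.21 at 8 h.

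After 8 h MaxD was higher than at 3 h in the controls and lower in KO. MaxD was 55.9 and 42.0 in WT, 43.3 in the littermate and 33.2 and 31.3 in KO. Against 3 h this was 3.98 and 2.58 times as much in the WT series and 4.17 times in the littermate series, but 0.761 and 0.653 times in the KO series. The core median of the controls rose with it. Core-scaled density at 8 h was 1.21 and 1.12 in WT and 1.15 in the littermate, only 1.07 to 1.30 times the 3 h values. In KO it was 0.793 and 0.746, or 0.624 and 0.533 times the 3 h values. The Z-score did not show a fall in both KO series. It was 105.04 and 79.1 in WT and 78.2 in the littermate at 8 h, 2.68 to 3.86 times the 3 h values, and 72.8 and 73.0 in KO, 1.05 and 0.938 times the 3 h values. At 8 h the KO Z-scores were thus close to those of the littermate and WT replicate 2. The mean density over the hotspot (AveD) was 2.47 to 3.83 times its 3 h value in controls and 1.22 and 0.801 times in KO, where the hotspot it is averaged over had shortened from 11487 to 3021 bp and from 10992 to 6468 bp. All 8 h libraries still lay above the 0 h library of their series. Against 0 h, log2 MaxD was 2.80 higher over the 5 series (6.96 times; two-sided exact permutation, p = 0.0278) and the core-scaled value 1.68 higher (exact permutation p = 0.0278).

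The order of the groups followed from these values. By mean MaxD (± SD, n = 2), KO at 0 h was at 8.78 ± 1.16 and WT at 0 h at 4.92 ± 1.89, then came WT at 3 h with 15.2 ± 1.59, KO at 8 h with 32.3 ± 1.34, KO at 3 h with 45.8 ± 3.04 and WT at 8 h with 48.9 ± 9.79. The last pair differs by less than the WT spread. The single littermate libraries, at 3.77, 10.4 and 43.3, had no replicate. By core-scaled density, KO at 3 h was highest (1.34 ± 0.092, n = 2) and WT at 8 h next (1.17 ± 0.064), ahead of WT at 3 h (1.07 ± 0.021) and KO at 8 h (0.770 ± 0.033).

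Rank within the list, which uses no density scale, showed the same course. The start element stood at ranks 15868 and 21130 by Z-score in the WT lists at 0 h, 21131 in the littermate list and 22143 and 13474 in the KO lists. At 3 h it was at 2508 and 2658 in WT, 3234 in the littermate and 2756 and 2221 in KO. At 8 h it was at 1976 and 1966 in WT, 2199 in the littermate and 4378 and 5597 in KO. By rank number, every library with LPS placed it above every library without, and at 8 h both KO libraries placed it below all controls. Lists differ in length, and rank as a share of the list gave another order. At 8 h the shares were 4.11% and 3.79% in WT, 1.92% in the littermate and 3.5% and 4.23% in KO, which overlap. At 3 h they were 16.0% and 13.2% in WT, 6.17% in the littermate and 2.29% and 1.9% in KO. Both WT shares at 3 h were worse than the 11.9% of KO replicate 2 at 0 h.

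**Figure D2:**
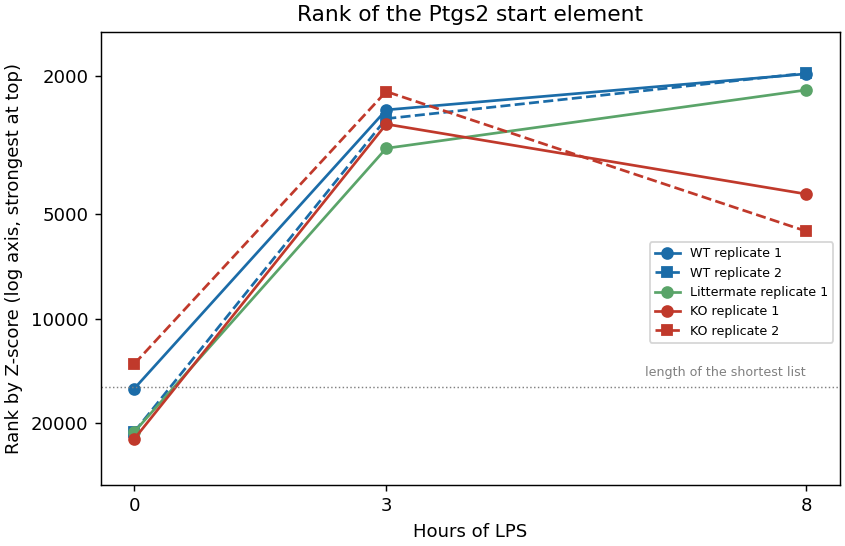
Rank of the Ptgs2 start element by Z-score among the hotspots of each deposited list (log axis, strongest at the top) against hours of LPS, 1 line per series, with the length of the shortest list, 15659, as a dotted line. All 5 lines rise from ranks between 13474 and 22143 at 0 h to ranks between 2221 and 3234 at 3 h; at 8 h the control lines lie at 1966 to 2199 and the KO lines at 4378 and 5597.

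For the tests, lists were shortened to equal length and an element missing from a shortened list took the next rank after its end, so differences are understated where the 0 h hotspot fell out. With 15659 hotspots per list, the mean log2 rank was 11.37 at 3 h and 13.89 at 0 h, a difference of -2.52 (5.72 times closer to the top, in 5 of 5 series; exact permutation, two-sided p = 0.0278, the smallest possible). Of the 26534 regions tested, 9.53% reached an unadjusted p under 0.05 in either direction and 4.69% with a better rank at 3 h, and 14 regions moved further up. With 17237 hotspots per list, the mean log2 rank was 11.51 at 8 h and 13.98 at 0 h, a difference of -2.47 in 5 of 5 series (exact permutation p = 0.0278). Of 28665 regions, 12.5% reached an unadjusted p under 0.05 in either direction and 7.44% with a better rank at 8 h, and 27 moved further up. Neither difference passed Benjamini-Hochberg adjustment over all regions (adjusted p = 0.291 at 3 h and 0.222 at 8 h, exact permutation), and no region did: at 3 h 0 of 26534 passed and 2530 had an unadjusted p under 0.05, and at 8 h 0 of 28665 passed and 3592 had one. The 2 comparisons share their 0 h libraries. The core medians of the controls also moved with hours of LPS; the core-scaled densities above rose with them divided out, and their part in the ranks was not tested.

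Averaged over all times, no difference between KO and littermate, or KO and all controls, was called at the start element. The mean log2 rank was 12.54 in KO and 12.38 in littermate lists of 52400 hotspots, a difference of 0.16 (exact permutation of the littermate label within times, two-sided p = 0.741, adjusted p = 0.834; 27 arrangements allow no p under 0.037). Among 101275 regions 0 passed adjustment in that design and 17958, or 17.7%, had an unadjusted p under 0.05. Against all 9 control libraries, at 15659 hotspots per list, the difference was 0.33 (12.46 in KO and 12.12 in controls; exact permutation p = 0.174, adjusted p = 0.354), where 20.6% of 27874 regions passed adjustment. A p that misses the threshold does not show that the genotypes are alike. At 3 h the rank numbers of KO and controls overlapped, and at 8 h they did not. As a share of the list, they overlapped at 8 h and not at 3 h.

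The course from 3 to 8 h was compared between genotypes after the values were seen. Rise in log2 rank was 0.34 and 0.44 in the WT series and 0.56 in the littermate series, against -0.67 and -1.33 in the KO series. The mean of KO minus the mean of controls was -1.45 (exact permutation of the KO label over 5 series, two-sided p = 0.1, the smallest that 10 arrangements allow). This test joins libraries of 3 and 8 h by replicate number, and these numbers do not pair the samples throughout, as described in the last section. Among 8476 regions present in all 10 shortened lists at 3 and 8 h, 7.2% had better ranks at 8 h in all 3 control series and worse ranks in both KO series, and 3.59% the reverse. A more negative difference than that of Ptgs2 was found in 2.83%. For core-scaled density, 3.07% of these regions rose in all 3 control series and fell in both KO series. At 3 h both KO libraries were above all 3 controls in core-scaled density at the Ptgs2 start, as at 24.6% of the regions (16.6% had the reverse), and at 8 h both were below all 3, as at 21.0% (33.6% had the reverse). The order at either time alone was therefore common. The share of regions with both orders together was not computed. The shares for the course from 3 to 8 h use another rule, a direction in each of 5 series, and cannot be set against those of the orders. The same difference was -1.66 for the log2 Z-score and -1.67 for log2 AveD (exact permutation p = 0.1 for each), with KO replicate 1 going up and KO replicate 2 down on both. So the controls rose more than KO on every measure, while a fall in both KO series was seen in rank, MaxD and core-scaled density and not in Z-score or AveD. KO libraries at 3 and 8 h had similar core medians (34.2 to 42.0), while those of controls went from 11.7 to 15.5 up to 37.5 to 46.2.

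Hotspots over the body of Ptgs2 appeared with LPS and were widest in KO at 3 h. In both KO libraries at 3 h a single hotspot ran over the whole gene and beyond it, from 151945795 to 151957282 (11487 bp) in replicate 1 and from 151946249 to 151957241 (10992 bp) in replicate 2. These were the 11th longest of 120589 hotspots and the 8th longest of 116803. In the control libraries at 3 h the start hotspot was 870 to 942 bp long, and of the rest of the gene only 2 short stretches were listed, both in the littermate library, 445 bp at 6.40 to 6.85 kb and 510 bp at 8.54 to 9.05 kb from the start. At 0 h no library had a hotspot in the gene other than the one at or near its start.

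**Figure D3:**
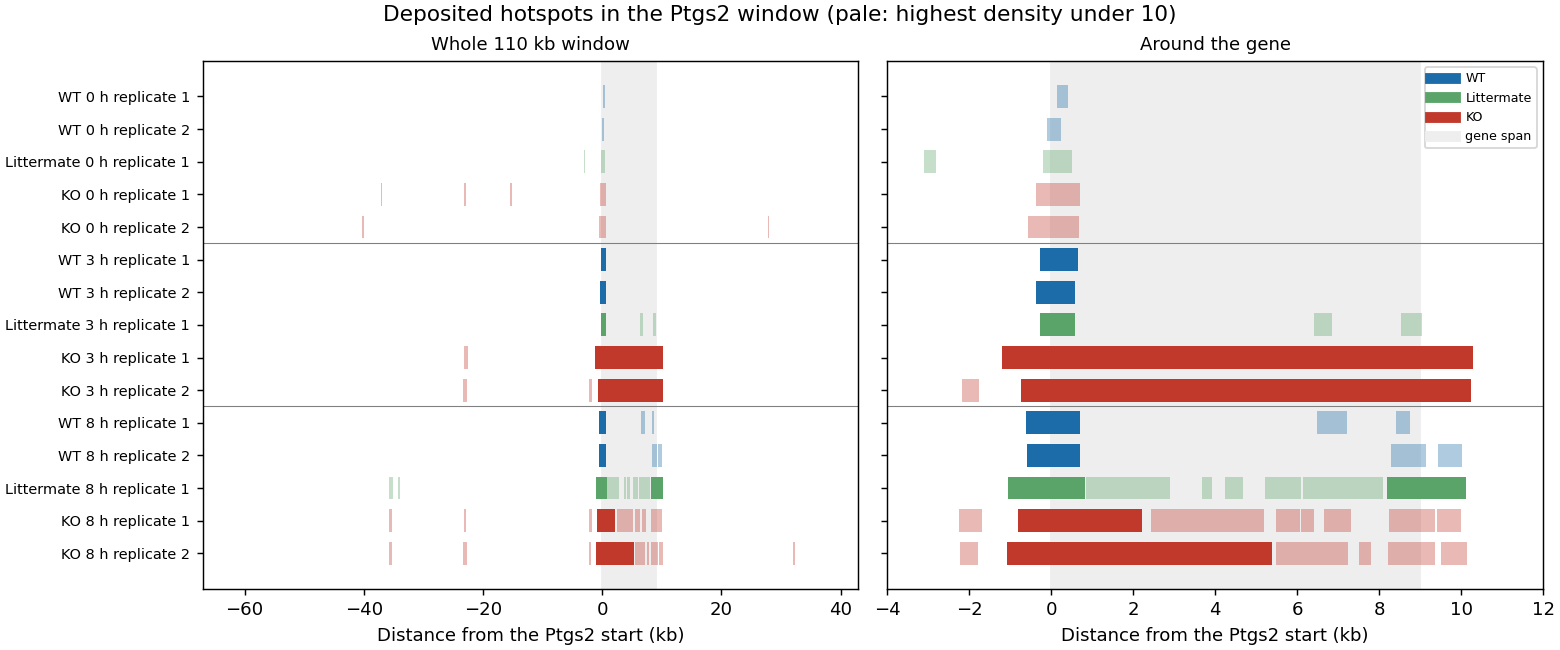
Deposited hotspots of the 15 libraries, sorted by hours of LPS, as bars against distance from the Ptgs2 start in kb, over the 110 kb window (left) and around the gene (right). Bars in full colour have a MaxD of at least 10 and the grey band is the span of about 9 kb taken for the gene. Both KO libraries at 3 h have 1 bar over the whole gene, and the littermate and KO libraries at 8 h have 5 to 8 separate bars there.

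At 8 h the gene was covered in pieces. The littermate list held 8 hotspots between 151945954 and 151957133, the KO lists 7 and 5 between 151945916 and 151957139, and the WT lists 3 each. Beyond the start hotspot these were weak, with MaxD of 3.00 to 10.99 in the littermate, 3.63 to 6.14 in KO replicate 1, 3.80 to 5.46 in KO replicate 2 and 5.02 to 7.98 in WT. Within the 8 h libraries the strongest piece outside the start in the controls lay at or near the end of the gene in the littermate (MaxD 10.99, 151955187 to 151957133) and in WT replicate 2 (7.98, 151955297 to 151956155), and at 6.48 to 7.22 kb in WT replicate 1 (7.36). In KO, the start hotspot itself was wider at 8 h, 3021 and 6468 bp against 1304 to 1860 bp in controls.

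As deposited, hotspots covered 2.57% to 7.90% of the gene span at 0 h, 6.29% to 16.6% in controls and 100.0% in both KO libraries at 3 h, and at 8 h 19.7% and 15.6% in WT, 80.4% in the littermate and 80.7% and 91.5% in KO. Since lists reach down to different Z-scores, the cover was computed also above a common minimum of 10.57 and at equal list length. Above the common minimum it was 7.13%, 6.29% and 6.51% in the controls at 3 h and 16.0%, 15.6% and 31.6% at 8 h (WT replicates 1 and 2, then littermate). In KO it was 100.0% in both libraries at 3 h and 63.4% and 68.6% at 8 h. With 15659 hotspots per list it was still 100.0% in both KO libraries at 3 h, 24.5% and 59.8% in KO at 8 h and 7.77% to 9.04% in the 8 h controls. KO libraries thus lay above controls at 3 and 8 h in each of the 3 ways, apart from the near equality of littermate (80.4%) and KO replicate 1 (80.7%) at 8 h as deposited. At 3 h the KO cover was a single hotspot with 1 Z-score per library (69.3 and 77.9), which includes the start. Neither cut could therefore remove its part over the gene body, whereas separate weak pieces in controls could be removed. The 3 ways do not compare the strength of the gene body. Long hotspots were more frequent in KO lists in general: 21 to 34 hotspots of at least 9 kb at 3 and 8 h and 8 to 10 at 0 h, against 15 in the littermate 8 h list and 0 to 2 in the other controls. The part of list strength in the width at Ptgs2 was not tested.

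**Figure D4:**
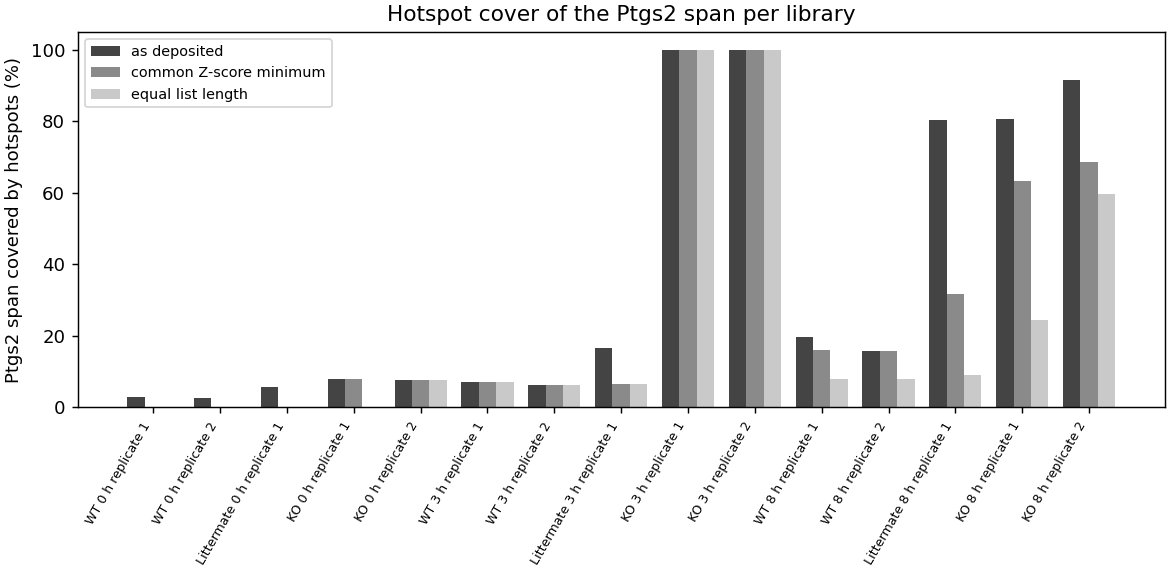
Percent of the Ptgs2 span covered by hotspots in each library, as deposited, above a common Z-score minimum and at equal list length. The KO bars at 3 h are at 100.0% in all 3 ways, those of controls at 3 h between 6.29% and 16.6%.

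A stretch around the end of the gene was the only part of the window that every 8 h list and no 0 h list held. Merged over those 10 deposited lists it ran from 151955187 to 151957139, 8.19 to 10.14 kb from the start. Its MaxD at 8 h was 5.02 in WT replicate 1, 7.98 in WT replicate 2, 10.99 in the littermate, 5.86 in KO replicate 1 and 5.46 in KO replicate 2, taking the strongest hotspot in each. At 3 h it was inside the gene-wide hotspot of both KO libraries and was listed in the littermate (MaxD 3.61) but in neither WT list. Of the 267099 regions in these lists, 0.453% were gained in this sense. In WT replicate 1 the 8 h hotspot of the stretch had a Z-score of 8.43, near the lowest of its list (7.98). The WT lists at 0 h stopped at 8.29 and 9.29, so weaker signal there would not be listed. Above the highest of the lowest Z-scores of the 10 lists, 0 elements of the window were gained, where 2536 of 69940 regions were. At equal list length 0 elements of the window were gained at 8 h, where 1.78% of regions were, and 0 at 3 h, where 0.923% were. The start element did not meet that rule because KO replicate 2, and in lists of 17237 also WT replicate 1, already held it before LPS. At equal length, 0 elements of the window were lost at 8 h (0.712% of regions were) or at 3 h (0.705%). Likewise 0 were in all KO lists and no littermate list (3.14% of regions) or the reverse (0.353%).

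The other 10 elements were weak and none was among the 15659 strongest hotspots of any list. Upstream there were 8, and 2 lay downstream. The one in most lists, 22.6 kb before the start (151923662 to 151924441), was in 5 of 6 KO lists and in no control list. Its MaxD was 3.50 in KO replicate 1 at 0 h, 6.996 and 7.18 in KO at 3 h, and 3.35 and 6.88 in KO at 8 h, with Z-scores of 4.45 to 9.44. The littermate lists reached lower than these scores at each time, down to 4.38, 4.54 and 3.65, whereas WT lists stopped at 7.98 or higher. At 3 h it was 1 of 47436 regions that both KO lists held and the littermate list lacked (28.3% of 167454), and at 8 h 1 of 19896 such regions (10.1% of 197193). An element 1.7 kb before the start (151944736 to 151945316) was in KO replicate 2 at 3 h (MaxD 4.88) and in both KO lists at 8 h (5.02 and 4.27), and in no control list, so that it too was among those 19896 at 8 h. Another, 35.2 kb before the start (151911203 to 151911848), was in the 8 h lists of the littermate (MaxD 5.33) and of both KO replicates (3.63 and 3.56) and at no other time. The remaining 7 elements were each in a single list, 4 of them at 0 h in KO, 1 at 0 h in the littermate, 1 at 8 h in the littermate and 1 at 8 h in KO, with MaxD of 2.23 to 4.90 and ranks of 59203 or lower in strength. They were not seen in the other replicate of their group where there was one.

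The 3 regions elsewhere whose log2 rank over the 15 shortened lists was most like that of the Ptgs2 start element lay, in mm9, on chromosome 2 from 44775625 to 44776816 (Pearson r 0.951), on chromosome 2 from 173042191 to 173045983 (r 0.945) and on chromosome 12 from 17516247 to 17518414 (r 0.942). All 3 were outside the 15659 strongest hotspots of every 0 h list and inside them in every list with LPS. The first had ranks of 9157, 7722 and 8823 in WT replicates 1 and 2 and the littermate at 3 h. At 8 h it was at 8118, 7765 and 5955 in these, so it did not rise in WT replicate 2. In KO it went from 8196 and 6142 at 3 h to 11459 and 11078 at 8 h. The second had ranks of 2370, 1084 and 1849 in WT replicates 1 and 2 and the littermate at 3 h and 1882, 1384 and 720 at 8 h, and in KO 2468 and 2638 at 3 h and 2531 and 2679 at 8 h, so the 3 to 8 h course of Ptgs2 was not shared there. The third went in KO from 9218 and 8659 to 10812 and 12102, and in controls from between 10749 and 12024 to between 9206 and 10310. Of 27874 regions, 19 had r over 0.9. The points share library strength and list length, no p is given, and the regions were named by position only.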

How the data were processed

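DNase-seq measured open chromatin in 15 libraries. Per the labels' protocols, DNase I fragments from isolated nuclei were enriched by size and sequenced from a single end. The submitters' processing notes name mm9 and CASAVA; the sources used here do not name the aligner, the hotspot caller or its threshold. Per the file headers, the authors deposited a MaxD and an AveD (a signal, the tag density at its highest and on average, of unstated scale), a Z-score and a p-value per hotspot. The score was computed by the authors in each library separately, with the background model not stated. There are no counts, so depth is unknown.

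Hotspots were ranked by Z-score, with coordinates as deposited (from 0 or from 1 is not stated). Lists of a comparison were shortened to the shortest, and hotspots sharing at least 1 bp were merged. Log2 ranks were compared by two-sided exact permutation (numpy 2.4.6, pandas 2.3.3), adjusted over all regions. The tests were tried on simulated ranks of regions present in every list. That trial did not cover elements missing from a list, as the start element was in some 0 h lists, or differences in library strength. The start element and elements in at least 5 of the 15 shortened lists (0 others) were to be given in full; other elements were named after their values were seen. Prostaglandin pathway genes and cell markers listed in the design were not placed, for lack of an mm9 annotation. The window and lists were chosen with earlier results of these data known; core-scaled density, gene cover and the 3 to 8 h course were added after the data were seen.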

Additional observations from a re-analysis of the deposited data

Results flagged for a closer look

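By rank, MaxD and core-scaled density, the Ptgs2 start element went up from 3 to 8 h of LPS in each of the 3 control series and down in both KO series. The mean of the KO series minus the mean of the control series was -1.45 for the rise in log2 rank, -1.01 for log2 core-scaled density and -2.31 for log2 MaxD as deposited. By Z-score and AveD it went up in the controls too, but in KO replicate 1 it also went up (1.05 and 1.22 times) and in KO replicate 2 down (0.938 and 0.801 times). The opposite directions drew attention to it; the difference was not tested at the 0.05 level, since 10 arrangements of 5 series cannot give an exact permutation p under 0.1. Control libraries at 3 h also had lower core medians of MaxD than those at 8 h, and of these 5 measures the difference was smallest in the core-scaled values.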

How the results depend on the processing

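The move of the start element towards the top of the list with LPS kept its direction in every alternative run. For 8 h against 0 h the log2 rank difference was -2.66 in lists as deposited, -1.57 at 0.5 times the length, -2.02 ranked by MaxD and -2.77 to -2.31 without a series, and for 3 h it was -2.79, -1.56, -2.24 and -2.75 to -2.50. With 50% of a region covered it was -0.32 and -1.06 and the unadjusted exact permutation p rose to 1 and 0.333; regions there span the long KO hotspots, of which the short control hotspots cover less. Without any 1 series the smallest possible p is above 0.05. The count of window elements gained went from 0 to 1 at 8 h in lists as deposited and at 0.5 times the length, and at 3 h at 0.5 times the length and ranked by MaxD (0 to 1 without a series, 1 without KO replicate 2). The KO difference from littermate reversed to -0.06 ranked by MaxD and to -1.08 with 50% covered, and that from all controls reversed to -1.13 with 50% covered (exact permutation p = 0.04, adjusted p = 0.113); their ranges without a series were 0.05 to 0.28 and 0.24 to 0.36. Regions passing adjustment in the latter numbered 5754, 29007 as deposited, 3092 at 0.5 times the length, 3770 ranked by MaxD, 7347 with 50% covered and 0 without any of the 4 series left out, where fewer arrangements remain. Regions gained genome-wide at 8 h numbered 510, and 187 to 2536 over the alternatives; at 3 h they numbered 245, and 30 to 429. The number of window elements was 11, 8 to 11 without a series and 1 in lists shortened to the shortest. The 3 to 8 h difference was -1.78 to -1.11 without a series and -2.31 to -1.01 over the measures of strength.

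With the replicate block, where times were exchanged only within a series, the differences were the same, -2.47 and -2.52, and the exact permutation p was 0.0625, the lowest value possible with 32 arrangements. Deviations of same-numbered libraries correlated at 0.415 to 0.517 in WT and at -0.0537 to 0.194 in KO over 27874 regions, so the numbers do not pair the samples throughout. Depth is unknown and WT lists stop at higher Z-scores, which limits what can be read from weak elements missing there.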
